A study of Sus scrofa with 4 samples.

Results

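The genes described here are 32 factors that shorten the poly(A) tail of mRNA, remove its cap, degrade the uncapped body or carry out nonsense-mediated decay (NMD). They are the rows of the deposited expression table whose gene name matches a fixed list of CCR4-NOT, PAN2-PAN3, decapping, XRN, UPF and SMG factors and RIDA, formerly HRSP12, and all 32 names were found among 20491 genes. RNA was sequenced from pig (Sus scrofa) follicle granulosa cells, the somatic cells that surround the oocyte. There were 2 libraries of cells transfected to interfere with YTHDF2, called siYTHDF2 here, and 2 libraries of cells given a transfection negative control. The series title places the study in the stimulation of granulosa cell proliferation by the neurotrophin BDNF, but the labels name neither a BDNF treatment nor an interfering sequence, a time after transfection or the age of the animals. Whether replicates are separate cultures is not labelled, and p-values therefore reflect the variation among the 4 libraries, possibly technical.

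YTHDF2 is a reader of N6-methyladenosine (m6A) in mRNA and lowers the stability of the transcripts it binds. In human cells it does so through some of the proteins described here. It binds CNOT1, the scaffold of the CCR4-NOT deadenylase, and it reaches RNase P and RNase MRP through HRSP12. It also associates with UPF1, the helicase of NMD, which leads to decapping. The comparison asks whether the transcripts of the 32 decay factors, these contacts among them, were themselves changed when YTHDF2 was lowered.

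Total counts were 47209177 and 54203550 in the siYTHDF2 libraries and 53331003 and 54841851 in the control libraries. The targeted gene YTHDF2 was at 23.6 and 23.2 CPM in the siYTHDF2 libraries, against 69.5 and 62.1 CPM in the control libraries (CPM, counts relative to TMM-scaled library size). Both siYTHDF2 libraries were below both controls (log2 fold change -1.49, SE 0.09, adjusted p = 1.49e-05, edgeR's quasi-likelihood test). Of the granulosa markers FOXL2 lay at 3.37 to 4.87 FPKM over the 4 libraries, FSHR at 3.44 to 4.44 FPKM and GJA1 at 462 to 620 FPKM. CYP19A1, which encodes aromatase, was listed at 0 in 1 library of each group and did not exceed 0.0671 FPKM. Low means over the 4 libraries were also those of AMH (0.271 FPKM), HSD17B1 (0.324 FPKM), AMHR2 (0.621 FPKM) and INHA (1.61 FPKM). The remaining granulosa markers averaged from 4.99 FPKM (NR5A2) to 108 FPKM (SERPINE2). Of 16 tested granulosa markers 2 were higher (SERPINE2 and CDH2) and 1 lower (INHBB) in edgeR. Among all tested genes 9.05% were higher and 10.6% lower. Markers of theca and stroma had 7 lower and 1 higher of 12 tested, with a summed level of 2721 and 3011 FPKM in the siYTHDF2 libraries, against 5740 and 6046 FPKM in the control libraries. Most of that sum was ACTA2, at 2411 and 2645 FPKM in the siYTHDF2 libraries, against 4956 and 5294 FPKM in the control libraries. The higher gene was DES, at 69.5 FPKM in both siYTHDF2 libraries, against 17.1 and 19.4 FPKM in the control libraries. The 7 lower genes were COL1A1, COL3A1, LUM, DCN, PDGFRA, ACTA2 and MYH11. LHCGR and STAR, at no more than 0.313 FPKM in any library, were not called, nor were PDGFRB and TCF21. Summed levels of endothelial, leukocyte and epithelial markers stayed between 1.94 and 3.91 FPKM in every library, with PTPRC at no more than 0.0271 FPKM and EPCAM, CDH1 and CLDN4 listed at 0 in both siYTHDF2 libraries. VWF was listed at 0 in both controls. Of these marker lists, 1 of 5 tested endothelial genes was higher in edgeR, VWF, with only 24 and 30 counts in the siYTHDF2 libraries. Lower were 1 of 4 epithelial genes, CLDN4, with only 11 and 15 counts in the controls, and 1 of 3 oocyte genes, KIT. The oocyte marker GDF9 was not called. In edgeR 0 of 6 leukocyte genes was called, where 1 had an unadjusted p under 0.05. Summed levels of the 4 oocyte markers in the table were 18.8 and 24.0 FPKM in the siYTHDF2 libraries, against 35.8 and 35.0 FPKM in the control libraries, most of it KIT. The part of these shifts in any result below was not tested. In bulk RNA, fewer cells of a type and less RNA per cell cannot be told apart.

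All 32 decay factors were detected in every library, with 132 to 28563 counts per library, and all 32 passed the filter on low counts. Levels between genes are compared in FPKM, which accounts for transcript length. The highest mean over the 4 libraries was that of DDX6, the RNA helicase that couples deadenylation to decapping, at 31.9 FPKM. It was followed by the nuclear exonuclease XRN2 at 30.4 FPKM, by the CCR4-NOT subunits CNOT2 at 25.2 and CNOT1 at 24.0 FPKM, and by the NMD factors SMG5 at 23.7, SMG1 at 23.2 and UPF1 at 20.9 FPKM. XRN2 lay above CNOT2 in all 4 libraries of each, whereas the other neighbours among these 7 overlapped. The lowest was DCP1B, a decapping activator, at 0.688 FPKM, below UPF3A at 1.52, LSM1 at 1.85 and UPF3B at 2.45 FPKM, and the library ranges of these 4 did not overlap. Mean FPKM was above the median of all tested genes for 26 of the 32 factors. The FPKM of 29 of the 32 factors was lower in siYTHDF2 replicate 1 than in replicate 2, compared with 18 of 32 for TMM-scaled CPM. Differences between groups are therefore given in CPM. The same count over all tested genes is not given here, so nothing about the factors is read from it.

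**Figure D1:**
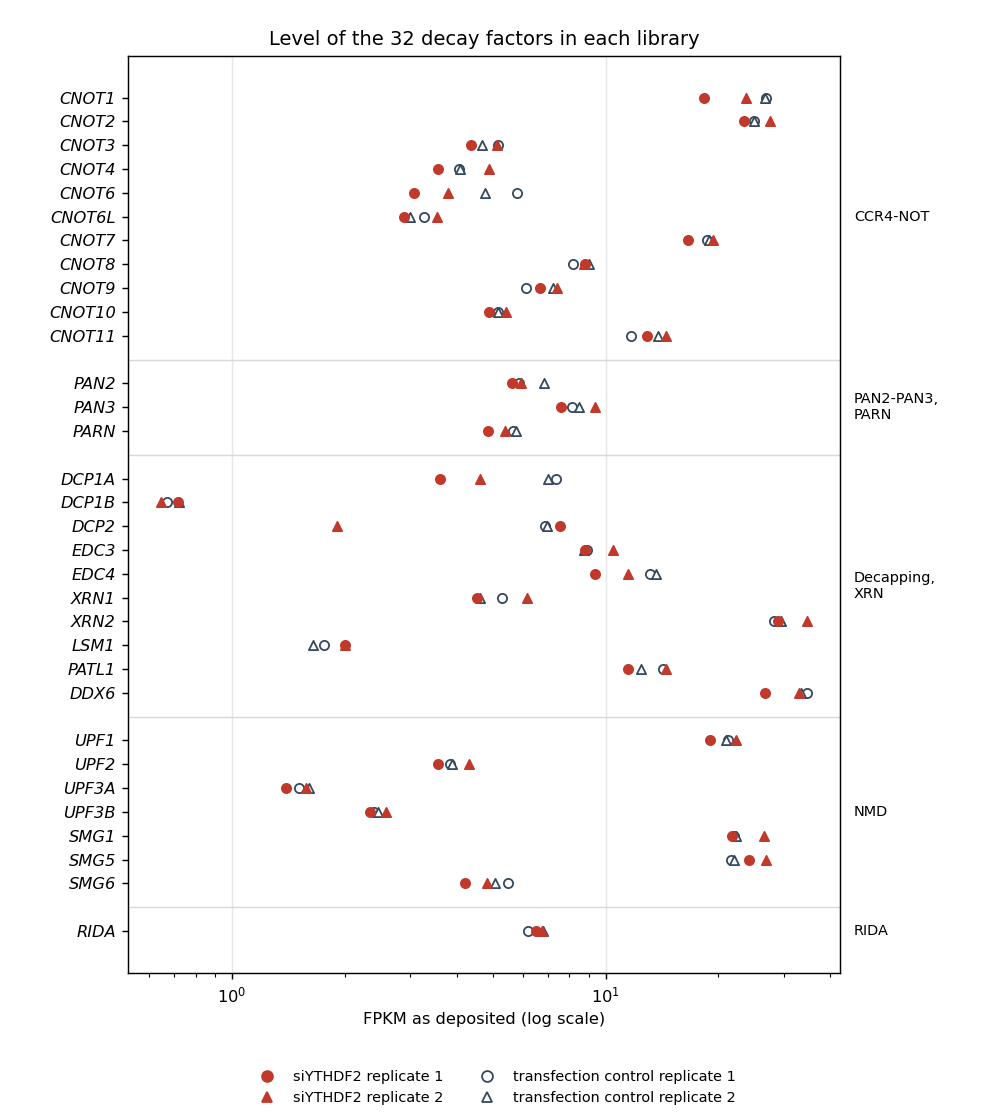
FPKM of each decay factor on a log axis, with 1 point per library (filled red for siYTHDF2, open for the transfection control) and genes grouped by role. Levels run from 0.644 FPKM for DCP1B to 34.7 FPKM for DDX6, and siYTHDF2 replicate 2 stands far to the left of the other libraries for DCP2.

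Most of these transcripts did not pass the test, and those that did moved in both directions by modest amounts. Of 32 factors 1 was higher with siYTHDF2 (SMG5), 4 were lower (DCP1A, CNOT6, EDC4 and CNOT1) and 27 were not called, where a call is a Benjamini-Hochberg adjusted p under 0.05 from edgeR over 15552 genes. Among all tested genes 19.6% were called, 9.05% higher and 10.6% lower, so the 15.6% of decay factors called is near the background. The median log2 fold change was 0.08 over the 32 factors and 0.00 over all tested genes. The median of the factors was 0.036 without siYTHDF2 replicate 1, 0.048 without siYTHDF2 replicate 2 and 0.0059 in limma on log2(FPKM + 1). That of all tested genes in the same fits was -0.0096, -0.0146 and -0.031. Of the 27 factors not called, 24 had a 95% interval of the log2 fold change that lay within 0.5 of 0 on both sides, not adjusted for the number of genes. The other 3 were DCP1B, DCP2 and LSM1, whose intervals reach further. Both siYTHDF2 libraries lay above both controls for 13 factors and below both for 7, together 20 of 32. The corresponding shares of all tested genes are 30.1%, 30.0% and 60.0%. Counts with a siYTHDF2 library left out also include DCP2, at -1.89 without siYTHDF2 replicate 1 and 0.30 without siYTHDF2 replicate 2. The number of lower factors was 2 without transfection control replicate 1, and the number of higher factors was 0 without siYTHDF2 replicate 1 and 2 without siYTHDF2 replicate 2.

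**Figure D2:**
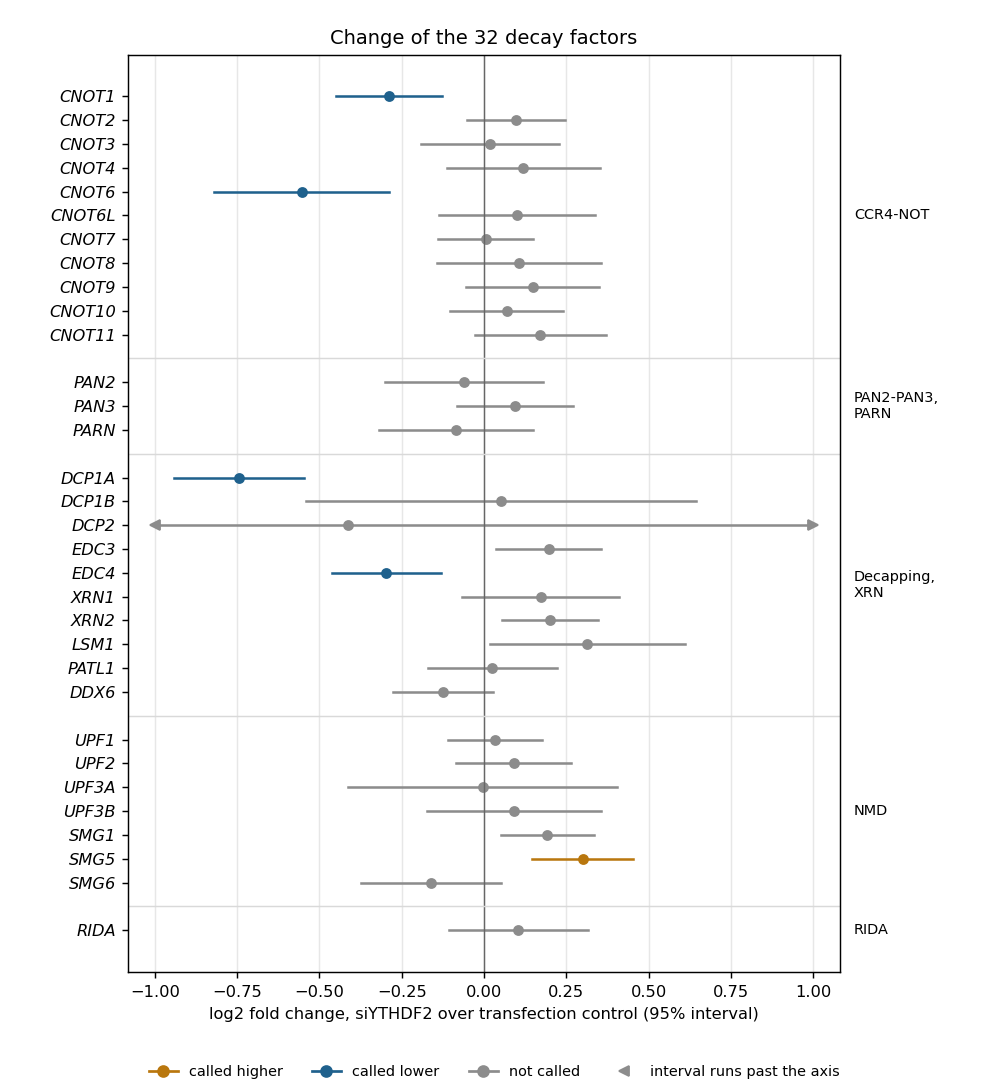
Log2 fold change of siYTHDF2 over transfection control for each decay factor with its 95% interval from edgeR, coloured by call at an adjusted p under 0.05. The 4 lower factors lie between -0.74 (DCP1A) and -0.29 (CNOT1), SMG5 lies at 0.30, and the interval of DCP2, from -4.35 to 3.53, runs past both ends of the axis.

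The CCR4-NOT complex, the main cytoplasmic deadenylase, had 2 lower subunits of 11 and none higher, against 10.6% and 9.05% of all tested genes. CNOT1, the scaffold on which the other subunits assemble and the contact site of YTHDF2 in human cells, had 200.3 and 224 CPM in the siYTHDF2 libraries, against 262 and 257 CPM in the control libraries. Both siYTHDF2 libraries were below both controls, with the lower value in replicate 1. Its log2 fold change was -0.29 (SE 0.07, adjusted p = 0.0218 in edgeR). The CNOT1 call was lost without siYTHDF2 replicate 1 (adjusted p = 0.156), without transfection control replicate 1 (adjusted p = 0.0660) and in limma on log2(FPKM + 1) and log2(FPKM + 0.1) (adjusted p = 0.0705 and 0.0805), and its adjusted p ranged from 0.00222 to 0.156 over all 15 alternatives. CNOT1 (ENSSSCG00000002799) lies on chromosome 6 from 20271596 to 20372245 on the minus strand in the deposited table. It overlaps SLC38A7 on the same strand by 35109 bases and SETD6 on the opposite strand by 3063 bases, and how reads were divided between them is not stated. SLC38A7 itself was not called (adjusted p = 0.999 in edgeR).

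CNOT6, one of the paired CCR4-type nucleases of the complex, had 25.4 and 26.9 CPM in the siYTHDF2 libraries, against 42.5 and 34.3 CPM in the control libraries. The groups did not overlap, although the controls were further apart than the siYTHDF2 libraries. CNOT6 was lower, its log2 fold change being -0.55 (SE 0.12, edgeR adjusted p = 0.0114), and without transfection control replicate 1 the call was lost (adjusted p = 0.0531), as it was in limma on quantile-normalised log2(FPKM + 1) (adjusted p = 0.0633, range over alternatives 0.00101 to 0.0633). The gene (ENSSSCG00000014009) lies on chromosome 2 from 78133425 to 78202358 on the minus strand. CNOT6L is its close relative in the same position of the complex. It had 25.6 and 27.2 CPM in the siYTHDF2 libraries, against 25.9 and 23.4 CPM in the control libraries. The groups overlapped (log2 fold change 0.10, 95% interval -0.14 to 0.34). CNOT6L overlaps the gene ENSSSCG00000008990 on the opposite strand by 30303 bases. That gene had 1539 and 1986 counts in the siYTHDF2 libraries, against 1440 and 1739 counts in the control libraries. How reads were divided between these genes is not stated.

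The other catalytic pair, CNOT7 and CNOT8, which are CAF1-type deadenylases, was not called. CNOT7 was at 108.6 and 109.2 CPM in the siYTHDF2 libraries, against 108.5 and 108.7 CPM in the control libraries, with a log2 fold change of 0.00 (95% interval -0.14 to 0.15). CNOT8 had 31.9 and 27.5 CPM in the siYTHDF2 libraries, against 26.5 and 28.7 CPM in the control libraries, and the groups overlapped. The remaining subunits were also not called. These are CNOT2 and CNOT3 of the NOT module, the ubiquitin ligase CNOT4, the adaptor-binding subunit CNOT9, and CNOT10 and CNOT11, which bind the amino-terminal part of CNOT1. Their log2 fold changes lay between 0.02 (CNOT3) and 0.17 (CNOT11), with no adjusted p below 0.218. For CNOT2, CNOT9, CNOT10 and CNOT11 each siYTHDF2 library exceeded each control, as it did for 30.1% of all tested genes. For CNOT9 the nearest libraries were only 64.0 CPM with siYTHDF2 and 63.5 CPM in the control.

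The 2 other deadenylases were not called either. PAN2, the nuclease of the PAN2-PAN3 complex that trims long tails, had 33.9 and 31.0 CPM in the siYTHDF2 libraries, against 31.4 and 36.3 CPM in the control libraries. The groups overlapped (log2 fold change -0.06, 95% interval -0.30 to 0.18). PAN3, its adaptor, had a log2 fold change of 0.09 (95% interval -0.08 to 0.27). PARN, a poly(A)-specific ribonuclease, had one of -0.08 (95% interval -0.32 to 0.15).

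Of the 10 decapping factors and exonucleases 2 were lower, a coactivator and a scaffold, and none was higher. Among all tested genes 10.6% were lower and 9.05% higher. The exonucleases were not called. DCP1A, which activates the decapping enzyme DCP2, had 34.8 and 38.3 CPM in the siYTHDF2 libraries, against 63.0 and 59.4 CPM in the control libraries. The gap between the groups was wider than the spread within either. This was the largest change among the called factors, at -0.74 on the log2 scale (SE 0.09, 95% interval -0.94 to -0.55, adjusted p = 0.000552 in edgeR), and it held in all 15 alternatives, with adjusted p of at most 0.0113. DCP1A (ENSSSCG00000022616) lies on chromosome 13 from 35391320 to 35455743 on the minus strand. DCP1B, the related coactivator, had 3.09 and 2.39 CPM in the siYTHDF2 libraries, against 2.56 and 2.72 CPM in the control libraries. With only 132 to 147 counts per library its interval was wide, from -0.54 to 0.64 on the log2 scale.

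EDC4, a scaffold that brings DCP1 and DCP2 together, had 59.4 and 62.9 CPM in the siYTHDF2 libraries, against 74.3 and 76.0 CPM in the control libraries. Both siYTHDF2 libraries were below both controls. Its log2 fold change was -0.30 (SE 0.07, adjusted p = 0.0221 in edgeR). That call was lost without siYTHDF2 replicate 1 (adjusted p = 0.125) and without transfection control replicate 2 (adjusted p = 0.0622), and also in limma on log2(FPKM + 1) and log2(FPKM + 0.1) (adjusted p = 0.115 and 0.116) and with a replicate block (adjusted p = 0.0511), within a range over alternatives of 0.0112 to 0.125. EDC4 (ENSSSCG00000002771) lies on chromosome 6 from 28489422 to 28501510 on the plus strand.

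DCP2, the enzyme that removes the cap, could not be placed, because its siYTHDF2 libraries disagreed. Its deposited counts were 4326 and 1094 in the siYTHDF2 libraries, against 3875 and 3962 in the control libraries, or 90.9 and 19.8 CPM against 73.6 and 73.3 CPM. Replicate 1 of siYTHDF2 was thus above both controls and replicate 2 far below them, 4.58-fold apart. The deposited FPKM showed the same split, at 7.57 and 1.91 FPKM in the siYTHDF2 libraries, against 6.88 and 6.95 FPKM in the control libraries. The log2 fold change of -0.41 had an SE of 0.99 (adjusted p = 0.846 in edgeR). Leaving out siYTHDF2 replicate 1 gave -1.89 (adjusted p = 1.40e-10), and leaving out siYTHDF2 replicate 2 gave 0.30 (adjusted p = 0.0485), so that the direction was set by which library was kept. In each of these fits the lone siYTHDF2 library is assumed to vary like the controls, which differed little for DCP2, so their p-values do not measure the spread seen between the siYTHDF2 libraries. In limma on log2(FPKM + 1) DCP2 was called lower, at -0.66 (adjusted p = 0.00137). There the variance of a gene is shrunk towards that of other genes, so this p-value does not measure the spread of DCP2 either. Among 7354 tested genes with a mean of at least 1000 counts, 2 differed between the siYTHDF2 replicates by at least as much, DCP2 included, and the median difference there was 0.09 on the log2 scale, against 2.20 for DCP2. DCP2 was the only one of these genes whose CPM in siYTHDF2 replicate 2 was at most 1/3 of the lowest of the other 3 libraries, and no gene met this in any other library. In the table DCP2 (chromosome 2 from 116743010 to 116804613, minus strand) overlaps no other gene. DCP2 was singled out after its values were seen.

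**Figure D3:**
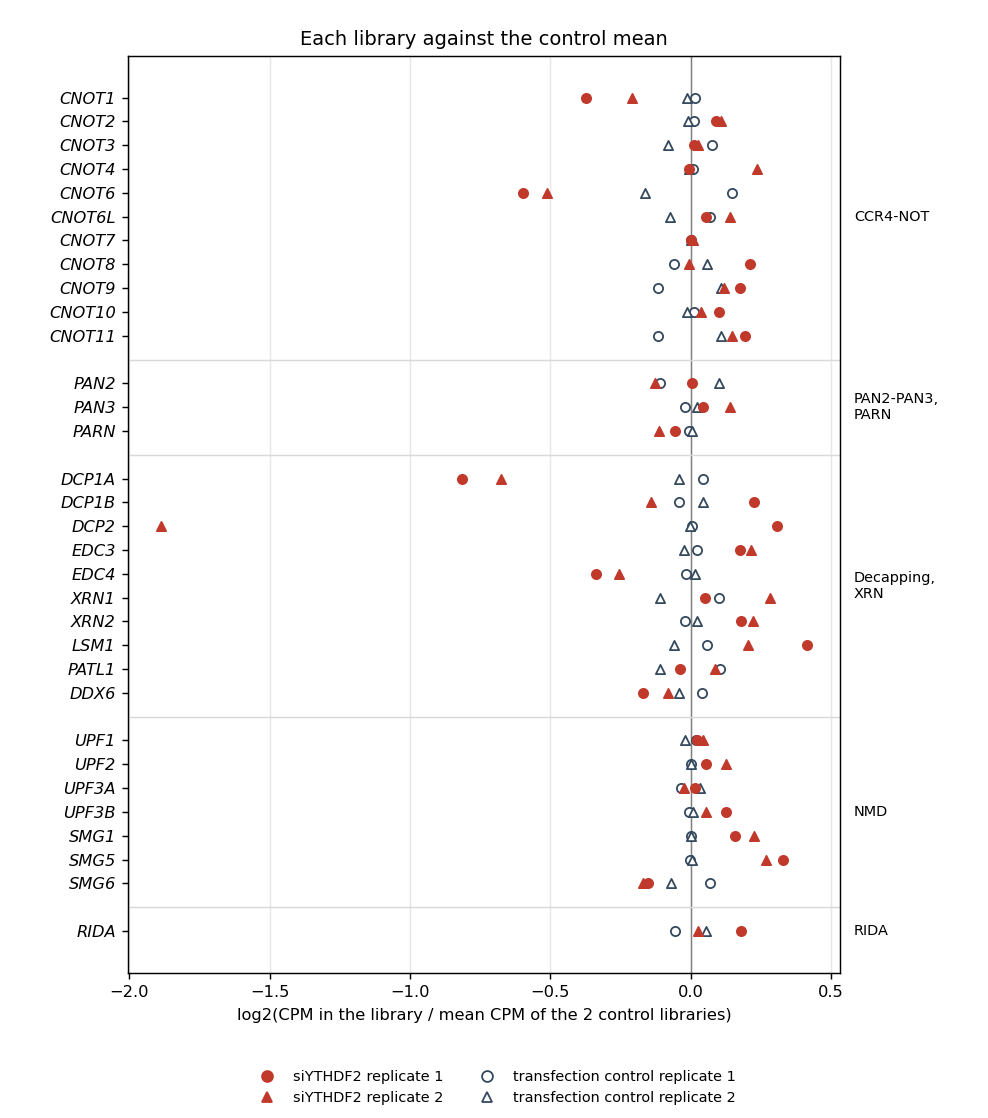
Log2 ratio of CPM in each library to the mean of the 2 control libraries, for every decay factor (filled red for siYTHDF2, open for the transfection control, circles for replicate 1 and triangles for replicate 2). Both siYTHDF2 points of DCP1A, CNOT6, EDC4 and CNOT1 lie left of the controls, while those of DCP2 lie on opposite sides, 2.20 apart on the log2 scale.

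The exonucleases that degrade decapped RNA were not called. XRN2, which works in the nucleus, had 133 and 138 CPM in the siYTHDF2 libraries, against 116 and 119.6 CPM in the control libraries. Both siYTHDF2 libraries were above both controls, but the test missed the threshold (log2 fold change 0.20, SE 0.06, adjusted p = 0.0569 in edgeR). XRN1, the cytoplasmic enzyme, had 48.6 and 57.1 CPM in the siYTHDF2 libraries, against 50.4 and 43.5 CPM in the control libraries, and the groups overlapped (95% interval -0.07 to 0.41). Of the remaining activators, EDC3 had a log2 fold change of 0.20 (adjusted p = 0.0841 in edgeR) and overlaps CLK3, which was higher at 0.42 (SE 0.11), on the opposite strand by 2501 bases. LSM1, the subunit that marks the cytoplasmic Lsm ring, had 794 and 795 counts in the siYTHDF2 libraries, against 685 and 649 counts in the control libraries (log2 fold change 0.31, 95% interval 0.02 to 0.61, adjusted p = 0.131 in edgeR). PATL1, which bridges the Lsm ring and the decapping enzyme, was at 0.03 and DDX6 at -0.12 on the log2 scale.

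Among the 7 NMD factors SMG5 was higher and the others were not called, beside 9.05% of all tested genes called higher. SMG5, which binds phosphorylated UPF1 and recruits phosphatase and decay enzymes, had 107.7 and 103 CPM in the siYTHDF2 libraries, against 85.4 and 86.0 CPM in the control libraries. Both siYTHDF2 libraries were above both controls. SMG5 rose by 0.30 on the log2 scale (SE 0.07, 95% interval 0.15 to 0.45, adjusted p = 0.0149 in edgeR). The call was lost without siYTHDF2 replicate 1 (adjusted p = 0.0929) and in limma on log2(FPKM + 1) and log2(FPKM + 0.1) (adjusted p = 0.339 and 0.355), and its adjusted p ranged from 0.00508 to 0.355 over the alternatives. SMG5 (ENSSSCG00000006490) lies on chromosome 4 from 93770378 to 93800650 on the plus strand.

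SMG1, the kinase that phosphorylates UPF1, had 494 and 518 CPM in the siYTHDF2 libraries, against 443 and 442 CPM in the control libraries. The groups did not overlap, and the test just missed the threshold (log2 fold change 0.19, SE 0.06, adjusted p = 0.0590 in edgeR). UPF1 had 138 and 140.3 CPM in the siYTHDF2 libraries, against 138 and 134 CPM in the control libraries, a log2 fold change of 0.03 (95% interval -0.11 to 0.18). UPF2, the bridge between UPF1 and the UPF3 proteins, was at 0.09, and UPF3B at 0.09 on the log2 scale, and the 95% interval of UPF3A ran from -0.41 to 0.40. SMG6, the endonuclease of NMD, stood on the other side, at -0.16 (95% interval -0.37 to 0.05). For UPF1, UPF2, UPF3B and SMG1 each siYTHDF2 library exceeded each control without a call, although for UPF1 the nearest libraries both round to 138 CPM. Among all tested genes 30.1% lay above both controls in this way.

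RIDA, the current name of HRSP12, had 45.6 and 40.9 CPM in the siYTHDF2 libraries, against 38.7 and 41.7 CPM in the control libraries. The groups overlapped, and the log2 fold change was 0.10 (SE 0.09, 95% interval -0.11 to 0.31, adjusted p = 0.497 in edgeR).

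Several of these factors come as pairs of related genes, and their FPKM ratios are given here as a description. Ratios of 3 of the 5 pairs did not overlap between the groups, beside 60.0% of all tested genes singly in CPM, so nothing is read from that count. The ratio of CNOT6 to CNOT6L was 1.07 in both siYTHDF2 libraries, against 1.77 and 1.58 in the control libraries. In the deposited FPKM the pair was thus near parity with siYTHDF2, while CNOT6 was the more abundant in the controls. The level of CNOT6L depends on how its reads were divided from those of the overlapping ENSSSCG00000008990, which is not stated. The log2 ratio of DCP1A to DCP1B was 2.33 and 2.84 in the siYTHDF2 libraries, against 3.46 and 3.28 in the control libraries. For UPF3A to UPF3B the ratio was 0.596 and 0.608 in the siYTHDF2 libraries, against 0.630 and 0.652 in the control libraries, a small gap without overlap. The ratios of CNOT7 to CNOT8 and of XRN1 to XRN2 overlapped between the groups. With 2 libraries a group, an exact permutation test cannot reach the 0.05 threshold, and no test was made of these ratios.

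**Figure D4:**
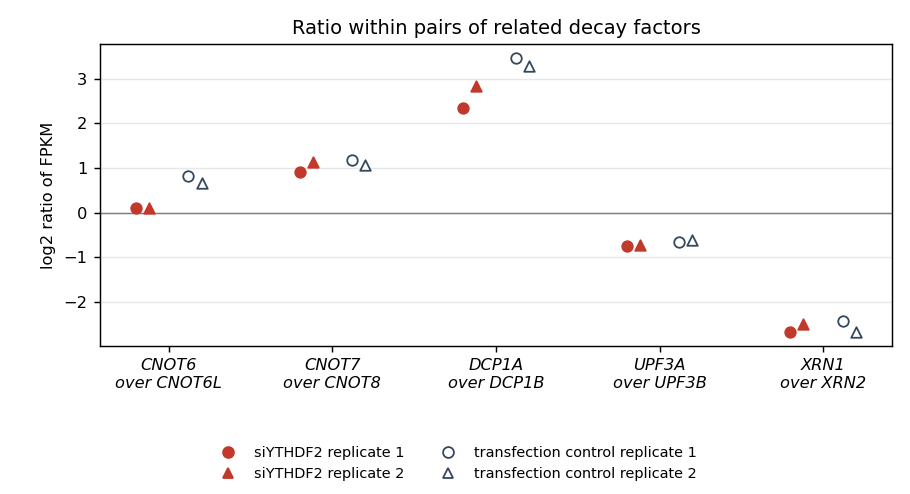
Log2 ratio of FPKM within 5 pairs of related decay factors, 1 point per library (filled red for siYTHDF2 on the left of each pair, open for the transfection control on the right). The ratio of CNOT6 to CNOT6L lies at 0.10 in both siYTHDF2 libraries, against 0.83 and 0.66 in the control libraries, and that of DCP1A to DCP1B at 2.33 and 2.84, against 3.46 and 3.28.

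Other genes of RNA decay were described as lists, by their counts. The RNA exosome degrades RNA from its tail end with the help of the SKI complex in the cytoplasm and MTREX in the nucleus. Of 17 tested genes in a list that also holds DIS3L2 and HBS1L, 7 were higher and 1, HBS1L, was lower. This compares with 9.05% and 10.6% of all tested genes, and the median log2 fold change of the list was 0.25. EXOSC2, which encodes a cap subunit, had 33.8 and 31.1 CPM in the siYTHDF2 libraries, against 20.4 and 22.3 CPM in the control libraries (log2 fold change 0.60, SE 0.11, adjusted p = 0.00436 in edgeR). The ring subunits EXOSC6 and EXOSC8 rose by 0.92 (SE 0.18) and 0.56 (SE 0.12). These 3 remained called in every alternative, whereas the number of higher genes was 3 without siYTHDF2 replicate 1 and 3 without transfection control replicate 1. HBS1L was not called once any 1 library was left out.

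RNase P and RNase MRP, which YTHDF2 reaches through HRSP12, share most of their protein subunits. Of 10 tested subunits 4 were higher and none was lower in edgeR, against 9.05% and 10.6% of all tested genes. In edgeR 5 subunits, all on the higher side, had an unadjusted p under 0.05, as did 5143 of all 15552 tested genes in either direction. The median log2 fold change of the subunits was 0.26. POP7 had 27.0 and 29.3 CPM in the siYTHDF2 libraries, against 19.3 and 20.1 CPM in the control libraries. It rose by 0.51 (SE 0.10) and RPP38 by 0.61 (SE 0.13). The count of higher subunits was 2 without siYTHDF2 replicate 1, without transfection control replicate 1 or without transfection control replicate 2. It was 0 in limma on log2(FPKM + 1), where 2 had an unadjusted p under 0.05.

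Exon junction and further NMD factors had 2 higher of 12 tested, against 9.05% of all tested genes. MAGOH, a core protein of the exon junction complex, averaged 42.0 ± 2.69 CPM in the siYTHDF2 libraries and 27.0 ± 1.36 CPM in the control libraries (SD, 2 libraries each) and rose by 0.64 on the log2 scale (SE 0.10), with a call in every alternative. The count of higher genes here was 1 without siYTHDF2 replicate 1 or without transfection control replicate 1, and 4 without transfection control replicate 2.

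Poly(A) tail binding proteins and microRNA effectors had 3 higher and none lower of 11 tested, namely AGO2, PABPC4 and PAIP1, where 5 had an unadjusted p under 0.05 in edgeR, and leaving out any 1 library left 1. Of 8 further Lsm proteins 1 was higher, LSM7 at 0.59 (SE 0.15), and none was lower, with 4 at an unadjusted p under 0.05 in edgeR. The higher count was 0 without siYTHDF2 replicate 1, 4 without siYTHDF2 replicate 2 and 2 without transfection control replicate 2. Other deadenylases and the scavenger decapping enzyme DCPS had 1 higher (DCPS) and 1 lower (ANGEL2) of 13. DCPS was not called without replicate 1 of either group, 2 genes were higher without transfection control replicate 2, and ANGEL2 was not called once any 1 library was left out. In the annotation of the table, the KEGG pathway RNA degradation holds 23 of the 32 decay factors. Its other 52 tested genes had 13 higher and none lower in edgeR, and 25 had an unadjusted p under 0.05. An unadjusted p under 0.05 in edgeR was common, held by 5143 of all 15552 tested genes. The whole pathway of 75 tested genes had 13 higher and 4 lower, and the 4 lower were decay factors described above. The 13 higher include the 7 of the exosome list, LSM7, PABPC4 and DCPS, so most were already counted in the other lists. The higher count was 5 without siYTHDF2 replicate 1 and 6 without transfection control replicate 1. The pathway also holds glycolytic enzymes such as PFKP, at 0.43 (SE 0.07). The lists were compared with all tested genes, of which 9.05% were higher and 10.6% lower, only by these counts and medians. No difference between lists was tested.

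**Figure D5:**
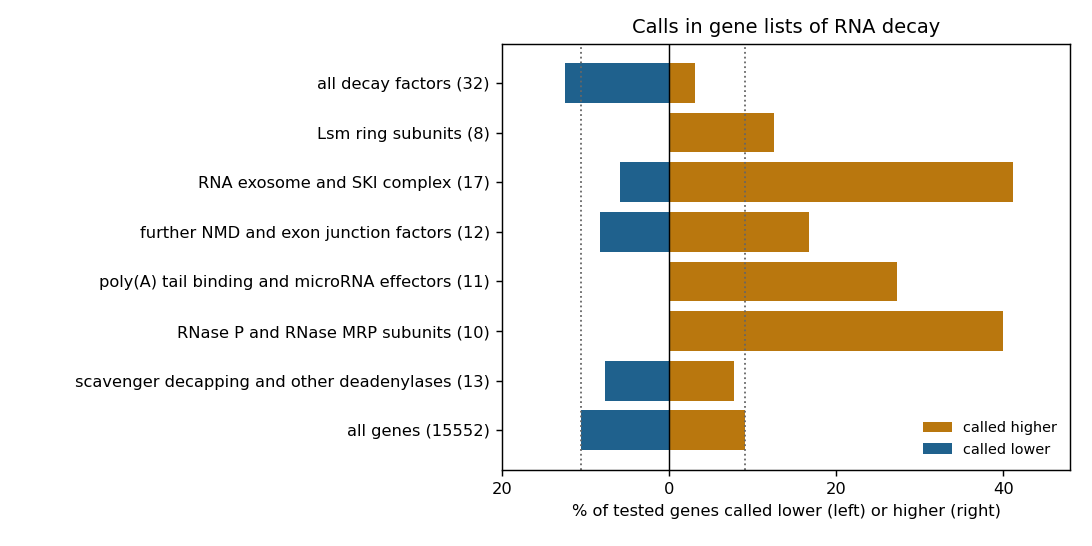
Percentage of tested genes called lower (bars to the left) or higher (bars to the right) with siYTHDF2 in each list, with the number tested in brackets and dotted lines at the values of all genes, 10.6% and 9.05%. Higher calls reach 41.2% of the exosome list and 4 of 10 genes of the RNase P and RNase MRP list, compared with 3.13% of the decay factors.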

How the data were processed

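The authors deposited 1 table with counts and FPKM values per gene and library, per the file headers. Bowtie 0.12.2 and a mouse build stand in the submitters' processing notes, and the labels' protocol speaks of retinas, both at odds with the pig gene identifiers. The build, counter and use of strand behind this table are not given in the sources used here. Coordinates are those of the table.

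The counts of all genes were fitted in edgeR 4.0.16 (R 4.3.3) by the quasi-likelihood method (robust, TMM factors, genes kept by filterByExpr), with group as the only term. All tests were on both sides, and Benjamini-Hochberg adjustment covered 15552 genes, with a threshold of 0.05. SEs and 95% intervals come from that test. CPM uses TMM-scaled library sizes. FPKM is used as deposited, to compare genes. Alternatives used limma 3.58.1 and DESeq2 1.42.0. The test was tried on simulated counts. Named genes were all decay factors, with values in full for those called and the 2 nearest the threshold (XRN2 and SMG1), and up to 4 of smallest p in each other list. Members and lists were chosen with earlier results of these data known. Listed genes without a row in the table were not analysed here. The result of 1 gene in the other lists is not reported here. The older name SKIV2L2 was read as MTREX.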

Additional observations from a re-analysis of the deposited data

How the results depend on the processing

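DCP1A kept its direction and its call in all 15 alternatives. The 5 called decay factors kept their direction in every alternative, and 61 of their 75 values also kept the call. CNOT1, CNOT6, EDC4 and SMG5 lost it in 14 values. Of 405 values of the 27 factors not called, 371 stayed so with the same sign, 7 passed the threshold and 27 changed sign, only DCP2 without siYTHDF2 replicate 2 with a call. The cause was not tested.

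The count of higher decay factors was 1 in edgeR, 2 in DESeq2, 0 in limma on log2(FPKM + 1) and 0 with a pseudocount of 0.1 (each 0 also at an unadjusted p under 0.05), and 0 to 2 with 1 library left out (4 at an unadjusted p under 0.05 without siYTHDF2 replicate 1, which gave the 0). The count of lower factors was 2 to 4 with 1 library left out. The number of all genes called higher was 1408, compared with 582 and 543 in limma with pseudocounts of 1 and 0.1 and 791 to 1287 with 1 library left out.

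Values that changed sign were, in limma with pseudocounts of 1 and 0.1, CNOT3 (-0.041 and -0.049), CNOT7 (-0.064 and -0.067), DCP1B (-0.012 and -0.027), PATL1 (-0.040 and -0.044), UPF1 (-0.037 and -0.039) and CNOT10 (-0.0024 and -0.0031). CNOT7 was at -0.013 with upper quartile scaling, -0.0063 with at least 50 counts in every library and -0.029 in quantile-normalised limma, where UPF3A was at 0.054. With 1 library left out, log2 fold changes ran from -0.058 to 0.099 for CNOT3, -0.011 to 0.23 for CNOT4, -0.0032 to 0.0041 for CNOT7, -0.011 to 0.21 for CNOT8, -0.16 to 0.046 for PAN2, -0.15 to 0.22 for DCP1B, -1.89 to 0.30 for DCP2, -0.079 to 0.14 for PATL1 and -0.039 to 0.028 for UPF3A.

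Replicate numbers are shared between the groups, but no label ties them to a culture or day, and the deviations of same-numbered libraries from their group means correlated at -0.148 over 15552 genes. With the replicate number as a replicate block, 1 decay factor was higher and 3 were lower, with 1020 of all genes called higher and 1361 of all genes called lower. With the numbers crossed, an alternative chosen after seeing the data, 4 decay factors were higher, and the number of all genes called higher was 1946. Where 1 library is left out, the lone library of its group is assumed to vary like the other group. Only 2 libraries per group limit all of these comparisons, and DCP1B, at 132 to 147 counts, is limited by depth as well.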
